A study of Mus musculus with 6 samples.

Results

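S100 proteins were followed in brown adipose tissue (BAT) through the 9 genes S100a1, S100a4, S100a6, S100a8, S100a9, S100a10, S100a11, S100a13 and S100a16. The members were taken by gene symbol, each symbol stood on 1 row of the count files, and the 9 rows were among 23282 rows in all. All 9 passed the filter on low counts that left 12995 genes to test. RNA came from the interscapular BAT of 6 male mice of the C57BL/6N strain at 5 weeks of age, and there was no further treatment. The 3 wild-type (WT) mice are the comparison group. The 3 Letmd1 KO (KO) mice are homozygous for a knockout-first Letmd1 allele, in which a cassette with a reporter and a selection gene stands in an intron. This allele is present in every tissue and goes back to 1 clone of embryonic stem cells, so the loss is not limited to brown adipocytes. Reads were taken with QuantSeq, a method that primes at the 3′ tail of mRNA, by which a count does not grow with the length of the transcript. Levels of different genes are set side by side on that basis, though reads shared between genes could not be told apart.

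S100 proteins are small calcium-binding proteins with paired EF hands that mostly act as dimers. On binding calcium they expose a surface that docks onto other proteins, among them annexins, myosin heavy chains, ion pumps and channels, and they have no enzyme activity of their own. S100a8 and S100a9 form calprotectin, the main protein of the neutrophil cytosol, which withholds metal ions from microbes and signals through receptors such as TLR4 once released. In adipose tissue most other members are made by adipocytes, fibroblasts, macrophages, vessels and nerves in differing proportions, and a whole depot holds all of these cells.

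Each mouse gave from 6669577 to 14574273 counts. The highest level compatible with a count of 0, taken as 3 counts, stood at between 0.176 and 0.397 CPM (library-scaled counts, with TMM factors) and covers counting error only. Letmd1 itself was read 5658, 6490 and 5266 times in WT BAT and 0, 0 and 1 times in Letmd1 KO BAT, which matched the labels of all 6. All 12 brown adipocyte markers looked up were detected and tested, and their summed level lay between 44081 and 50129 CPM in WT and between 14540 and 18070 CPM in KO mice. The 2 libraries with the highest skeletal muscle signal were WT 2 and KO 3 (504 and 1318 CPM summed over the muscle list, against 84.3 and 97.1 CPM in the other WT mice and 465 and 360 CPM in the other KO mice), and counts below are also given without them where they matter.

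The S100 transcripts of BAT shifted in composition between the genotypes. The 9 members together reached 1916, 1832 and 2051 CPM in the WT mice and 1378, 1703 and 1459 CPM in the KO mice, and the sums did not overlap. That difference rests on the TMM scaling. With library size alone the sums were 1640, 1625 and 1747 CPM in WT and 1608, 1932 and 1704 CPM in KO mice, which overlap, and the KO mean was the higher. Shares within the 9 do not depend on the scaling. S100a1 alone made up a mean of 45.4% of the 9 in WT BAT and 23.9% in Letmd1 KO BAT. S100a6 held from 3.79% to 4.17% in WT and from 14.8% to 19.3% in KO mice. The mean share of S100a10 went from 8.20% to 16.3% and that of S100a4 from 0.613% to 4.41%. S100a13 went the other way, from 20.1% to 10.5%.

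Of the 9 members, 3 (S100a4, S100a6 and S100a10) rose, 2 (S100a1 and S100a13) fell and 4 did not pass the threshold of 0.05 on the adjusted p given by edgeR's quasi-likelihood F test and adjusted by Benjamini-Hochberg over all genes tested. Across all 12995 genes tested, 23.7% were called higher and 22.3% lower in Letmd1 KO BAT, so a share of 33.3% higher and 22.2% lower in a group of 9 genes lies near that background. The same 5 members were those whose CPM did not overlap between the genotypes, and 30.1% of all genes tested lay wholly higher and 27.2% wholly lower in the KO mice. The median log2 fold change was 0.00 over the 9 members and 0.03 over all genes tested. What follows is therefore an account of single members and not of the family moving as a body.

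**Figure D1:**
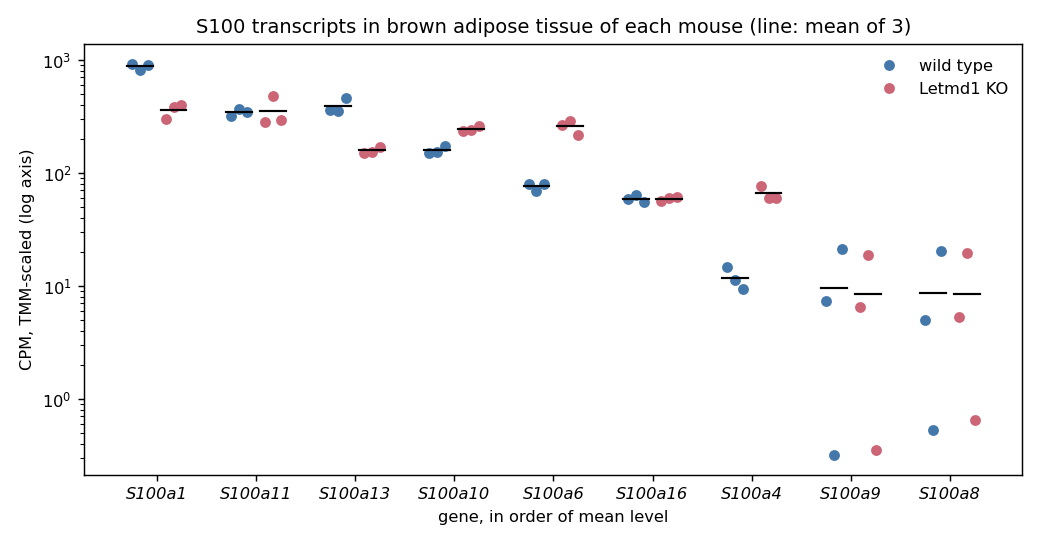
CPM (TMM-scaled, log axis) of the 9 S100 members in each of the 3 wild-type and 3 Letmd1 KO mice, with genes ordered by mean level and a line at each group's mean. S100a1 and S100a13 lie lower and S100a4, S100a6 and S100a10 higher in all 3 KO mice, and the mice of each genotype are spread widely for S100a8 and S100a9 alone.

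In WT BAT the order of mean levels was S100a1, S100a13, S100a11, S100a10, S100a6, S100a16, S100a4, S100a9 and S100a8. S100a1 stood above all other members in every WT mouse, while S100a13 and S100a11 overlapped, and so did S100a4, S100a9 and S100a8. In Letmd1 KO BAT the order was S100a1, S100a11, S100a6, S100a10, S100a13, S100a4, S100a16, S100a9 and S100a8. There S100a1 overlapped S100a11, S100a11 overlapped S100a6, S100a6 overlapped S100a10, S100a4 overlapped S100a16 and S100a9 overlapped S100a8, so these neighbours were not set apart beyond the spread of the mice.

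S100a1, which in heart and skeletal muscle binds the calcium pump and the calcium release channel of the sarcoplasmic reticulum, was the most abundant member. Its mean level was above that of 98.4% of the genes tested. The WT mice had 924, 818 and 889 CPM (6828 to 8584 counts), whereas the KO mice had 299, 384 and 399 CPM (2724 to 6785 counts). Every KO mouse lay below every WT mouse. The mean went from 877 ± 54.1 CPM (SD, n = 3) to 361 ± 53.8 CPM, which is 2.43-fold lower, with a log2 fold change of -1.28 (SE 0.14, adjusted p = 9.2e-05 by edgeR's quasi-likelihood F test, Benjamini-Hochberg adjusted). In whole tissue, fewer cells of a type and less RNA per cell cannot be told apart, which holds for every member.

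S100a13, which takes part in the release of fibroblast growth factor 1 and interleukin 1 alpha from cells by a route without a signal peptide, fell by nearly the same amount. It had 361, 351 and 458 CPM in the WT mice and 150, 154 and 170 CPM in the KO mice. Again the groups did not overlap, and the KO mice lay close together. The mean went from 390 ± 59.4 CPM to 158 ± 10.5 CPM (SD, n = 3), 2.47-fold lower, with a log2 fold change of -1.31 (SE 0.13, adjusted p = 6.32e-05 by the same test).

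S100a1 and S100a13 were also the closest of all 36 pairs of members across the 6 mice. The root mean square difference of their log2 CPM, each centred over the mice, was 0.15. It was 0.24 for S100a11 and S100a16, 0.41 for S100a8 and S100a9 and 0.43 for S100a4 and S100a6. Genes outside the family were closer to each, with Ech1 at 0.06 from S100a1 and Pdzd9 at 0.04 from S100a13. The closeness is thus not particular to this pair. This is a description over 6 mice that share library and scaling, with no test. Their genes are neighbours that point away from each other on chromosome 3. In the GENCODE annotation of GRCm38, S100a1 lies on the minus strand from 90511034 to 90514392 and S100a13 on the plus strand from 90514435 to 90524581, so that their outermost starts are 43 bases apart. The ends read by the 3′ libraries are 13.55 kb apart and on opposite strands, so neither gene's reads fall on the other.

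The shared start region of S100a1 and S100a13 is shown because both members that fell begin there. It is the RefSeq promoter window of S100a13 at chr3:90514185-90514484 (GRCm38.p6, plus strand, 5′ to 3′), which runs from 250 bases before its start to 50 bases from it. Capitals mark the 104 bases between the RefSeq start of S100a1 at 90514330, on the other strand, and that of S100a13 at 90514435, which RefSeq places 105 bases apart.
S100a13/S100a1: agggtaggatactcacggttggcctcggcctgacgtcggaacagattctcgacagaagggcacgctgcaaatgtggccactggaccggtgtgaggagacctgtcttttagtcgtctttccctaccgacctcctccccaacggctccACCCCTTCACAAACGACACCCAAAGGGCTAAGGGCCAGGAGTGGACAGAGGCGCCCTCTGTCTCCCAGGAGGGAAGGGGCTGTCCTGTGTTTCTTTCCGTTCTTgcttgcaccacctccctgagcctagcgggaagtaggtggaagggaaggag
None of the searched motifs given later in the text is present in this window or in that of S100a1.

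Markers of brown adipocytes fell alongside S100a1 and S100a13. Of 12 listed and tested brown adipocyte genes, 10 were lower and 0 higher in Letmd1 KO BAT, against 22.3% and 23.7% of all genes tested. The median log2 fold change of the list was -1.42. Among them Ucp1, the uncoupling protein of thermogenesis, changed by -4.05, Cox8b, a subunit of cytochrome c oxidase, by -2.07, and Fabp4, a fatty acid carrier of adipocytes, by -1.42 on the log2 scale. The falls of S100a1 and S100a13 lay near the median of this list, and the part of brown adipocyte RNA in them was not tested. Of 14 tested skeletal muscle markers, from a tissue where S100a1 is best known, 3 (21.4%) were higher and 0 lower, beside the same shares of all genes tested. The muscle list was highest in WT 2 and KO 3, S100a1 was lowest of the WT mice in WT 2 and highest of the KO mice in KO 3, and without both libraries its log2 fold change was -1.42 (adjusted p = 0.00128 by the same edgeR test), with -1.45 for S100a13.

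S100a4, also called fibroblast-specific protein 1, binds the heavy chain of non-muscle myosin and is made by fibroblasts and macrophages. It showed the largest change of the 9 members. The WT mice had 14.8, 11.2 and 9.38 CPM (72 to 137 counts) and the Letmd1 KO mice 76.9, 60.3 and 60.0 CPM (456 to 1021 counts). The lowest KO mouse was far above the highest WT mouse. From 11.8 ± 2.73 CPM the mean reached 65.7 ± 9.71 CPM (SD, n = 3), 5.55-fold higher, with a log2 fold change of 2.47 (SE 0.19, adjusted p = 1.76e-05 by edgeR's quasi-likelihood F test, Benjamini-Hochberg adjusted). A greater log2 fold change was seen in 4.39% of the genes tested. S100a4 spans positions 90603771 to 90606045 of chromosome 3 (plus strand), and the gene model Gm42674 overlaps it on the same strand without a row of its own in the count files, so reads of these models cannot be told apart.

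S100a6, or calcyclin, is raised when fibroblasts leave quiescence and also binds annexins. It is the next gene but one downstream of S100a4 on the same strand, from 90612882 to 90624181. Its level was 79.9, 69.4 and 79.2 CPM in the WT mice and 266, 289 and 216 CPM in the KO mice. WT mice hardly differed from each other, and all 3 KO mice lay clear of them. The mean went from 76.1 ± 5.89 CPM to 257 ± 37.5 CPM (SD, n = 3), 3.38-fold higher, with a log2 fold change of 1.76 (SE 0.13, adjusted p = 1.67e-05 by the same test). Only 8.6% of the genes tested had a greater log2 fold change.

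Marker lists of the cells that carry S100a4 and S100a6 moved in the same direction. Of 17 tested monocyte and macrophage markers, 16 were higher and 0 lower, against 23.7% and 22.3% of all genes tested. The median log2 fold change of these markers was 2.86. Their summed level lay between 220 and 291 CPM in WT and between 1587 and 3845 CPM in KO mice. Lgals3 (6.05), Gpnmb (7.03) and C1qa (2.36 on the log2 scale) were named from this list by the rule on level and adjusted p, and Gpnmb had an SD above its mean in KO mice (372 ± 555 CPM). Of 12 fibroblast and progenitor markers, 11 were higher and 0 lower, with a median of 1.46, beside the same shares of all genes tested. These summed to between 2367 and 3075 CPM in WT and between 6307 and 10630 CPM in KO mice. The collagens Col1a2 and Col3a1 changed by 1.53 and 1.73, and Cd34 and Fn1 by 1.36 and 2.39 on the log2 scale. KO 2 had the highest sum of both lists, while S100a4 was highest in KO 1 and S100a6 in KO 2. The part of these cells in the 2 results was not tested.

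**Figure D2:**
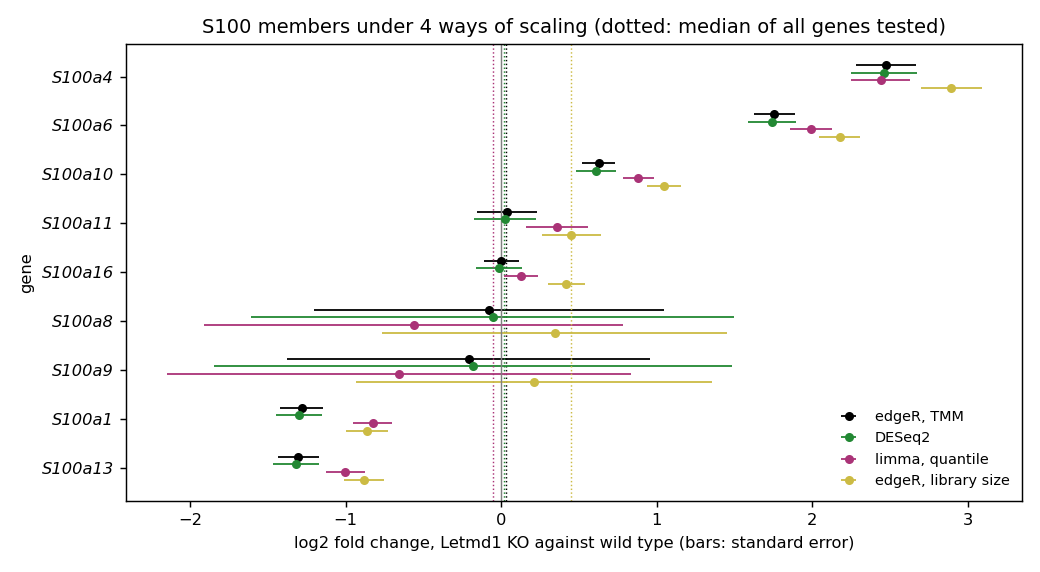
Log2 fold change of each S100 member in Letmd1 KO against wild-type BAT under 4 ways of scaling, with bars of 1 standard error and a dotted line at the median of all genes tested for each scaling. S100a4, S100a6, S100a10, S100a1 and S100a13 keep their side of 0 in all 4, and scaling by library size alone moves every member upward by about the same amount as the median of all genes.

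S100a10 differs from its relatives in that it does not need calcium to act. It pairs with annexin A2 in a complex that carries channels to the cell membrane. It had 150.4, 152 and 173 CPM in the WT mice and 236, 240.0 and 258 CPM in the KO mice. All KO mice were above all WT mice, and each genotype was tight. The mean went from 159 ± 12.9 CPM to 245 ± 11.6 CPM (SD, n = 3), 1.54-fold higher, with a log2 fold change of 0.63 (SE 0.11, adjusted p = 0.00121 by edgeR's quasi-likelihood F test, Benjamini-Hochberg adjusted). Without WT 2 and KO 3 its adjusted p was 0.0341, the highest of all alternatives.

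Anxa2, the partner of S100a10, rose by the same amount on the log2 scale. Its counts were 1913, 2652 and 2150 in the WT mice and 3516, 3274 and 6218 in the KO mice, which gave means of 256 ± 43.0 and 395 ± 34.6 CPM (SD, n = 3). The log2 fold change was 0.63 (SE 0.14, adjusted p = 0.0062 by the same test). Within each mouse, the log2 ratio of S100a10 to Anxa2 counts was -0.45, -0.89 and -0.69 in WT and -0.71, -0.85 and -0.50 in KO mice. The ratios of the genotypes overlapped and the difference of the means was -0.01 (p = 0.9, two-sided exact permutation test, adjusted p = 0.9 over 3 ratios).

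S100a11, which binds annexin A1 and takes part in the repair of the plasma membrane, was among the most abundant members and did not pass the test. It had 315, 367 and 345 CPM in the WT mice and 282, 478 and 295 CPM in the KO mice. KO mice reached both below and above the WT range. Means were 342 ± 26.0 and 351 ± 110 CPM (SD, n = 3), with a log2 fold change of 0.04 and a 95% interval from -0.40 to 0.47 (adjusted p = 0.889 by the same edgeR test). KO 2 held the high value, and without it the log2 fold change was -0.25 (adjusted p = 0.103). S100a11 and S100a10 are 34.59 kb apart by their starts, at 93520488 to 93526287 and 93555080 to 93564643 of chromosome 3, both on the plus strand.

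Anxa1, the partner of S100a11 and a mediator that damps inflammation, rose strongly by contrast with it. Its counts were 65, 56 and 68 in WT and 529, 767 and 752 in KO mice. The mean went from 7.26 ± 1.48 to 67.9 ± 29.8 CPM (SD, n = 3), with a log2 fold change of 3.22 (SE 0.32, adjusted p = 5.61e-05 by the same edgeR test). The log2 ratio of S100a11 to Anxa1 counts was 5.48, 5.94 and 5.27 in WT and 2.28, 2.24 and 2.74 in KO mice. Ratios of the genotypes lay wide apart, with a difference of -3.15 (p = 0.1, two-sided exact permutation test, adjusted p = 0.3 over 3 ratios), and 3 mice against 3 cannot give a p below 0.1.

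**Figure D3:**
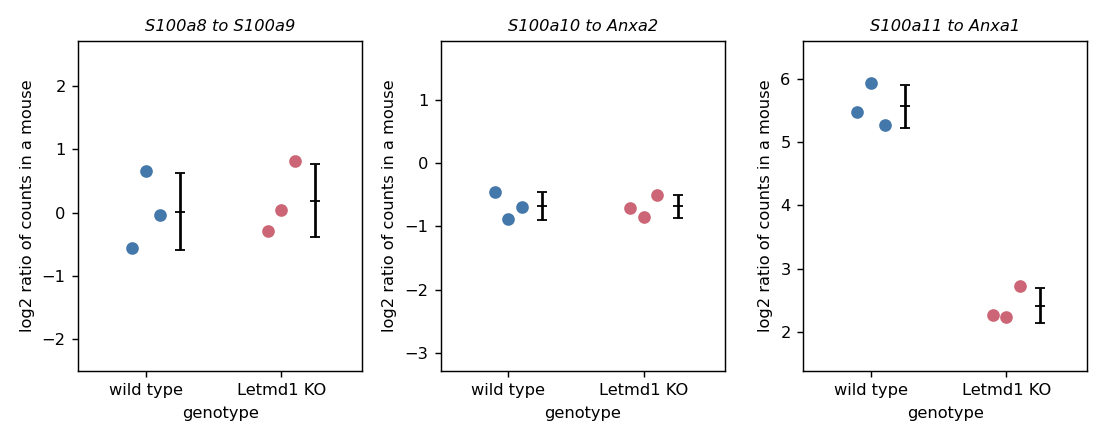
Log2 ratio of counts within each mouse (points) for S100a8 to S100a9, S100a10 to Anxa2 and S100a11 to Anxa1, by genotype, with the mean and SD of 3 mice beside them. The ratio of S100a11 to Anxa1 lies between 5.27 and 5.94 in wild-type and between 2.24 and 2.74 in KO mice, while the genotypes overlap for the other ratios.

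S100a16, a widely expressed member that has been tied to adipocyte differentiation in culture, was level between the genotypes under TMM scaling. It had 58.0, 63.7 and 54.7 CPM in the WT mice and 55.9, 59.5 and 61.3 CPM in the KO mice. The mice of both genotypes were interleaved, with means of 58.8 ± 4.58 and 58.9 ± 2.78 CPM (SD, n = 3). The log2 fold change was 0.00 with a 95% interval from -0.25 to 0.25 (adjusted p = 0.992 by the same edgeR test). With libraries scaled by their total alone it was 0.42 (adjusted p = 0.014). That scaling moved the median of all genes tested to 0.45, and it called 45.3% of all genes higher and 10.6% lower, so that S100a16 stayed next to the median gene under both.

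S100a8 and S100a9 were set apart from the other members by their spread and not by genotype. S100a8 had 4.95, 0.529 and 20.4 CPM in the WT mice (46, 5 and 157 counts) and 5.27, 19.4 and 0.646 CPM in the KO mice (48, 147 and 11 counts). S100a9 had 7.32, 0.318 and 21.0 CPM in the WT mice (68, 3 and 161 counts) and 6.48, 18.8 and 0.352 CPM in the KO mice (59, 142 and 6 counts). Each genotype thus held a mouse with a high level of both genes (WT 3 and KO 2), a mouse in between (WT 1 and KO 1) and a mouse with few counts (WT 2 and KO 3).

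The highest WT mouse exceeded the lowest 38.6-fold for S100a8 and 66.0-fold for S100a9, and the highest KO mouse exceeded the lowest 30.1-fold and 53.3-fold. These ratios are loosely fixed, since the lowest mice had 5 and 11 counts of S100a8 and 3 and 6 of S100a9. The 3 counts of S100a9 in WT 2 equal the highest level taken as compatible with a count of 0, though the gene was read there. A wider range than that of S100a8 was seen in 1.30% of the genes tested among WT mice and in 0.231% among KO mice. For S100a9 these shares were 0.900% and 0.185%. The other 7 members ranged within a genotype by at most 1.70-fold. Means were 8.64 ± 10.5 and 8.45 ± 9.79 CPM for S100a8 and 9.54 ± 10.5 and 8.53 ± 9.38 CPM for S100a9 (SD, n = 3), so that each SD exceeded its mean.

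Neither member of the pair passed the test between the genotypes. The log2 fold change was -0.08 for S100a8 (95% interval from -2.61 to 2.46, adjusted p = 0.962) and -0.21 for S100a9 (from -2.83 to 2.42, adjusted p = 0.898) by edgeR's quasi-likelihood F test, Benjamini-Hochberg adjusted. These intervals are so wide that a change of several-fold in either direction was not detectable with these mice. The direction turned with the mice that entered. For S100a8 it was 1.54 without WT 3, 0.53 without KO 3, 0.16 without KO 1, -1.64 without KO 2 and 0.34 with library size alone. For S100a9 it was 1.07 without WT 3, 0.42 without KO 3, -1.60 without KO 2 and 0.21 with library size alone, and none of these passed the threshold.

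Within a mouse, S100a8 and S100a9 kept close to each other. The log2 ratio of their counts was -0.56, 0.65 and -0.04 in WT and -0.29, 0.05 and 0.82 in KO mice. The difference of 0.17 between the genotypes was within the spread of the mice (p = 0.7, two-sided exact permutation test, adjusted p = 0.9 over 3 ratios). By the root mean square difference of centred log2 CPM over the 6 mice, the gene most like S100a8 among the genes tested with a mean of at least 20 counts was S100a9 (0.41), and the next were Hcar2 (1.05) and Zfp85os (1.07). For S100a9 they were S100a8 (0.41), Hcar2 (1.34) and Zfp85os (1.36). Hcar2, a receptor for hydroxybutyrate, had 25, 16 and 52 counts in the WT mice and 11, 98 and 7 in the KO mice. Its highest mice were also WT 3 and KO 2, which follows in part from its choice by likeness over these same mice. S100a8 lies on the plus strand from 90668978 to 90670035 and S100a9 on the minus strand from 90692632 to 90695721 of chromosome 3.

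Elane and Mpo, from the neutrophil list and looked up whatever their values, were at or near 0, while some other genes of the list were not. Low counts of Elane and Mpo alone do not give the level of neutrophils in BAT. Of 22 listed, 21 had a row, Ly6g was not analysed here, Ctsg was at 0 in every mouse, and 4 passed the filter on low counts. Elane, a protease of neutrophil granules, had 0, 0 and 0 counts in WT and 0, 6 and 0 in KO mice. Mpo, the myeloperoxidase of the same granules, had 0, 2 and 0 counts in WT and 4, 6 and 0 in KO mice. Of the 20 listed markers with counts, 12 were highest in WT 3 among the WT mice, 16 in KO 2 among the KO mice, and 9 in both, as S100a8 and S100a9 were. The share of all genes highest in these mice was not computed, so these numbers have no background beside them. Some rest on very few counts, such as Cd177 with 1, 0 and 2 in WT and 0, 2 and 0 in KO mice. Values of some are given here, chosen after they were seen. Camp had 1, 1 and 7 counts in WT and 0, 39 and 0 in KO mice. Ngp had 5, 0 and 8 counts in WT and 1, 33 and 0 in KO mice. Ltf had 0, 0 and 7 against 0, 7 and 0 counts, and Mmp8 had 0, 0 and 6 against 1, 12 and 0. Retnlg had 9, 4 and 39 counts in WT and 8, 10 and 0 in KO mice, and was tested with a log2 fold change of -1.72 (SE 1.13, adjusted p = 0.245 by the same edgeR test). Others were highest in CPM in only 1 of these mice (Prtn3 in KO 2, Csf3r and Cxcr2 in WT 3) or in neither (Il1r2). Cxcr2 had 4, 1 and 5 counts in WT and 9, 5 and 6 in KO mice. Prtn3 had 10, 1 and 6 counts in WT and 1, 15 and 0 in KO mice, Csf3r had 1, 2 and 3 against 7, 1 and 8, and Il1r2 had 9, 6 and 1 against 7, 4 and 12. Apart from Retnlg, these genes were under the filter on low counts, and the part of neutrophils in the spread was not tested.

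Lcn2, Wfdc21 and Mmp9, the other tested genes of the list, rose in KO BAT. Lcn2, which encodes an iron-withholding lipocalin that adipocytes and macrophages make as well, had 11, 9 and 12 counts in the WT mice and 481, 183 and 590 in the KO mice. In CPM it was highest in KO 1 and lowest in KO 2, where S100a8 was highest of the KO mice. Its log2 fold change was 4.92 (SE 0.35, adjusted p = 1.29e-05 by edgeR's quasi-likelihood F test, Benjamini-Hochberg adjusted). Wfdc21 rose by 2.21 (adjusted p = 0.0119) and Mmp9, a matrix protease, by 1.91 (adjusted p = 0.0208) on the log2 scale. Both were highest in WT 3 and KO 2, like the calprotectin pair, and the genotypes overlapped for Mmp9 (3.49 to 6.25 CPM in WT and 5.71 to 34.0 CPM in KO mice). The summed level of the neutrophil list was 17.9, 9.64 and 28.4 CPM in WT and 82.9, 141 and 63.1 CPM in KO mice, and Lcn2, Wfdc21 and Mmp9 carried most of it in the KO mice.

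**Figure D4:**
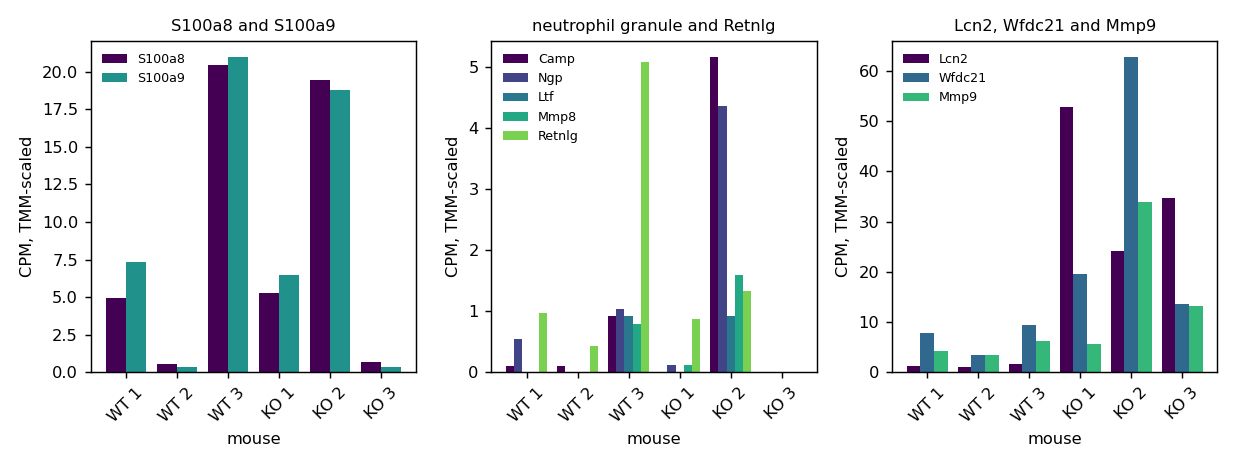
CPM (TMM-scaled) in each of the 6 mice for S100a8 and S100a9, for 5 granule and neutrophil genes of low count, and for Lcn2, Wfdc21 and Mmp9. WT 3 and KO 2 hold the high bars of S100a8, S100a9, Camp and Ngp, whereas Lcn2 is high in all 3 KO mice.

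The promoter windows of S100a4, S100a8 and S100a9 are shown next, since S100a4 changed most and the calprotectin pair varied together, and since these are the member windows that hold a TATA box (TATAAA, on either strand). Windows were matched by symbol in RefSeq for 8 of the 9 members, with 9 windows in all. That of S100a10 had no match. TATAAA was found in 3 of the 9 windows and in 13.6% of 32851 windows of the same length over all genes. Each sequence runs 5′ to 3′ on the strand of its gene in GRCm38.p6, with the TATA box in capitals. The windows are S100a4 at chr3:90603520-90603819 on the plus strand, S100a8 at chr3:90668821-90669120 on the plus strand and S100a9 at chr3:90695672-90695971 on the minus strand.
S100a4: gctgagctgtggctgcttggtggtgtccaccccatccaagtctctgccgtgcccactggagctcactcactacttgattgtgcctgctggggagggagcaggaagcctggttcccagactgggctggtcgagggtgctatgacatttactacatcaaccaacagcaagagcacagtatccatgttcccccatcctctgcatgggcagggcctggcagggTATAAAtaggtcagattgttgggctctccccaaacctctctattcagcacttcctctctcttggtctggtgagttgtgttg
S100a8: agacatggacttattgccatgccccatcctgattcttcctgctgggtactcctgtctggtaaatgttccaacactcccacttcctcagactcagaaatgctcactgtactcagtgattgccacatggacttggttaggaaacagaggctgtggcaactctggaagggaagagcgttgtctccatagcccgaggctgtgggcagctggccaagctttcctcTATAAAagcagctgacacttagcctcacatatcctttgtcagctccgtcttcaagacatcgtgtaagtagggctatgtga
S100a9: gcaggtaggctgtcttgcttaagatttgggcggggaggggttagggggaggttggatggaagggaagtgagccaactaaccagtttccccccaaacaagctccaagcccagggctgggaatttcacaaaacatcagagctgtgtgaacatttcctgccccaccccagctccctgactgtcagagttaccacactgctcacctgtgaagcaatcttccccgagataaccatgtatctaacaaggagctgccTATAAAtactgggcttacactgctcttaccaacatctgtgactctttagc
The capitals begin at position -31 in S100a4 and -30 in S100a8 relative to the annotated start and at 0 in S100a9, where the annotated start falls on them. A further motif, the C/EBP core TTNNGNAA, was found on 1 place in S100a8 and 2 in S100a9 and in no other member window, and 40.7% of all windows hold it. The AP-1 motif TGANTCA was found on 2 places in S100a11 and 1 in S100a16, and 7.81% of all windows hold it. The motifs do not overlap each other, and such matches are descriptions of letters and not of binding.

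The 7 members from S100a1 to S100a9 stand within 184.7 kb, and S100a11 and S100a10 follow after a gap of 2.82 Mb. S100a1 and S100a13 had similar values, and so did S100a8 and S100a9, while other neighbours differed in size or direction. From S100a1 onward, the log2 fold changes were -1.28 (S100a1), -1.31 (S100a13), 0.00 (S100a16), 2.47 (S100a4), 1.76 (S100a6), -0.08 (S100a8) and -0.21 (S100a9), followed by 0.04 (S100a11) and 0.63 (S100a10). Within 50 kb of the members, 4 genes outside the family were tested. Npr1, a receptor for natriuretic peptides that act on adipocytes, fell by 0.85 on the log2 scale (adjusted p = 0.0044 by edgeR's quasi-likelihood F test, Benjamini-Hochberg adjusted). Ilf2 (-0.17), Snapin (-0.16) and Chtop (0.15), which lies next to S100a1, did not pass the test.

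**Figure D5:**
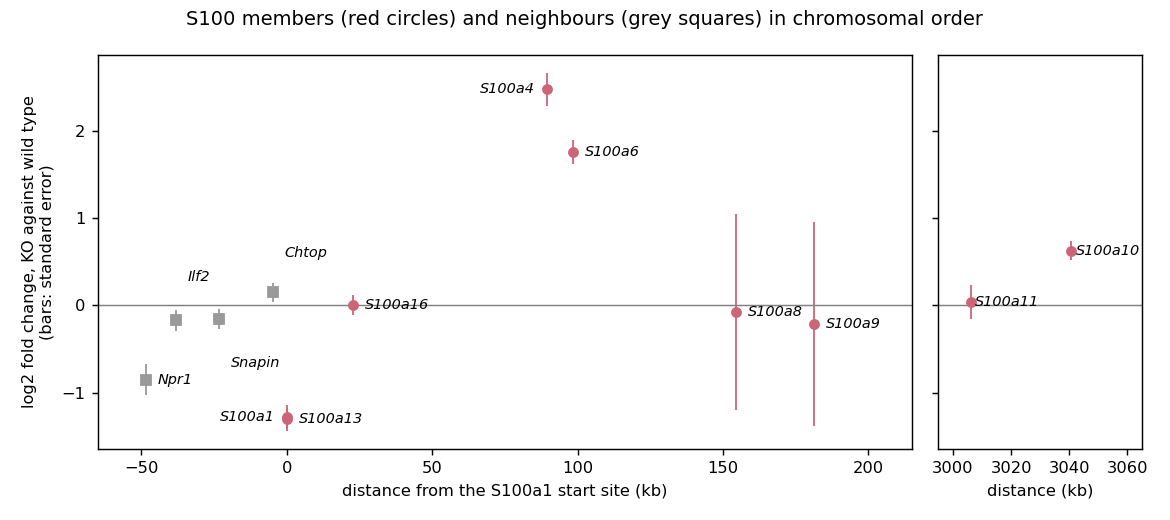
Log2 fold change in Letmd1 KO against wild-type BAT (bars of 1 standard error) by distance from the S100a1 start in kb, for S100 members (red circles) and the tested genes around them (grey squares), with an axis break before S100a11 and S100a10. S100a1 and S100a13 share a point near -1.3, whereas S100a4 and S100a6 stand above 1.7 less than 100 kb away.

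Beyond the 9 members, 12 further family symbols were looked up, of which 9 had a row and 2 were tested. S100b, the S100 of glia, is also made by adipocytes. It had 1725, 1480 and 1828 counts in the WT mice and 2112, 1369 and 5465 in the KO mice, with overlapping means of 194 ± 41.2 and 245 ± 70.9 CPM (SD, n = 3). Its log2 fold change of 0.34 (SE 0.22, adjusted p = 0.228) did not pass edgeR's quasi-likelihood F test (Benjamini-Hochberg adjusted), while scaling by library size alone gave 0.77 (adjusted p = 0.0138) and leaving out WT 2 and KO 3 gave -0.05. Dip2a overlaps S100b on the opposite strand. In the Schwann cell list, which also holds S100b, 4 of 6 tested markers were higher and 0 lower. Of all genes tested, 23.7% were higher and 22.3% lower, and the part of Schwann cells in the S100b level was not tested. S100g, a vitamin D-dependent calcium carrier, had 5, 3 and 16 counts in WT and 17, 14 and 13 in KO mice (log2 fold change 0.60, adjusted p = 0.521 by the same test), and Ctps2 overlaps it on the opposite strand.

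Further symbols were under the filter with counts on record. S100a3 had 1, 2 and 1 counts in WT and 3, 1 and 1 in KO mice. S100a14 had 3, 2 and 4 against 0, 0 and 3. S100z had 0, 1 and 6 against 0, 0 and 0. S100pbp, which encodes a binding protein and not an S100 protein, had 10, 15 and 10 against 5, 5 and 11 counts. S100a2, S100a5 and S100a7a were at 0 in all 6 mice. At this depth, the family symbols with a row thus came down mainly to the 9 members and S100b, with few or no counts of the rest. S100a8 and S100a9 were no higher than such genes in some mice. In KO 3, S100g had 13 counts, S100a8 had 11 and S100a9 had 6. S100a7l2, S100a15 and S100a17 had no row under these symbols, so their levels are not known.

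Among the proteins that S100 proteins bind, annexins came first. Of 12 listed, 10 were tested, and 5 rose and 1 fell in Letmd1 KO BAT, against 23.7% and 22.3% of all genes tested. The median log2 fold change was 0.37. Besides Anxa1 and Anxa2, Anxa4 changed by 1.37 (adjusted p = 5.93e-05) and Anxa3 went from 13.3 ± 4.48 to 53.4 ± 10.3 CPM (SD, n = 3, adjusted p = 0.000214 by edgeR's quasi-likelihood F test, Benjamini-Hochberg adjusted). Anxa6 (449 ± 34.6 and 407 ± 33.1 CPM) and Anxa5 (338 ± 17.9 and 368 ± 14.9 CPM, SD, n = 3), the most abundant annexins, had log2 fold changes of -0.14 and 0.12 and did not pass. Anxa8, at -1.34 (adjusted p = 0.0369), was the annexin that fell, its groups overlapped, and the call was lost without WT 1, WT 3, KO 1 or KO 3.

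Receptors of released S100 proteins were tested for 11 of 12 genes, of which 6 rose (54.5%) and 1 fell (9.09%), against 23.7% and 22.3% of all genes tested, with a median log2 fold change of 1.10. Cd68, a scavenger receptor of macrophages that the macrophage list also holds, changed by 3.96 (adjusted p = 9.29e-05). Tlr4, the receptor for calprotectin, went from 3.55 ± 1.06 to 16.8 ± 2.82 CPM (SD, n = 3), a log2 fold change of 2.22 (adjusted p = 0.000156 by edgeR's quasi-likelihood F test, Benjamini-Hochberg adjusted). Alcam, a cell adhesion receptor, changed by 3.55 (adjusted p = 0.000481). Cd36, the fatty acid transporter and the most abundant of the list, had means of 1003 and 1020 CPM and a log2 fold change of 0.02 (adjusted p = 0.91). Bsg, or basigin, fell by 0.43 on the log2 scale (adjusted p = 0.0118), and this call was lost with library size alone and with quantile normalization.

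Intracellular targets were tested for 23 of 29 genes, of which 8 rose (34.8%) and 2 fell (8.70%), against 23.7% and 22.3% of all genes tested, with a median log2 fold change of 0.47. Kcnk3, an acid-sensitive potassium channel that S100a10 carries to the membrane, was the most abundant and went from 1384 ± 145 to 417 ± 111 CPM (SD, n = 3), a log2 fold change of -1.73 (adjusted p = 0.000125 by edgeR's quasi-likelihood F test, Benjamini-Hochberg adjusted). It thus fell where S100a10 rose. Ahnak, a giant scaffold protein that docks on S100a10 and annexin A2, went from 422 ± 7.55 to 747 ± 34.5 CPM, a log2 fold change of 0.82 (adjusted p = 0.000241). Trp53, the tumour suppressor that S100a4 binds, changed by 1.66 (adjusted p = 0.000214). The count of targets higher went to 16, and that of receptors higher to 10, with library size alone. The other target called lower, Sugt1 at -0.45 (adjusted p = 0.042, chosen here after its value was seen), lies near the threshold, and the count of targets lower was 1 without WT 1, WT 2, KO 1, KO 2 or KO 3.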

How the data were processed

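Total RNA of interscapular BAT from 3 wild-type and 3 Letmd1 KO mice was read with QuantSeq 3′ libraries, single-end. The authors aligned the reads with Bowtie2 to mm10 (build and tools per the labels, versions not given in the sources used here), took bedtools coverage of genes over unique and multiple alignments, and deposited the raw counts of every mouse, not normalized. Use of strand and the annotation are not given in the sources used here, so reads shared with near-identical copies or overlapping genes could not be told apart. The quantile normalization in edgeR that the study's methods name is not in these counts.

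Samples were grouped by genotype as the labels give it. Nothing in the labels says how the mice of a genotype were related. Mice of 1 genotype were no repeats of each other (chi-square over degrees of freedom from 11.5 to 34.0 for each pair). Counts were analysed with R 4.3.3, edgeR 4.0.16 (TMM scaling, minimum count 10, minimum total 15, quasi-likelihood test, Benjamini-Hochberg adjustment, threshold 0.05), limma 3.58.1 and DESeq2 1.42.0, and the steps were tested on simulated data. TMM factors were 0.852 to 0.887 in WT and 1.13 to 1.17 in KO mice. Standard errors are the log2 fold change divided by the root of the F statistic, and 95% intervals use the t distribution with the 9.29 degrees of freedom of that test. Centred log2 CPM used a prior count of 2, and ratios within a mouse used counts with 0.5 added to each.

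The 9 members and all gene lists (annexins, receptors, targets, and markers of neutrophils, macrophages, fibroblasts, Schwann cells, endothelium, erythroid cells, muscle and brown adipocytes) were chosen with earlier results of these data known. Genes named are the members, family genes with at least 3 counts in a mouse, Letmd1, Anxa1, Anxa2, from each partner list the 3 with the lowest adjusted p and the 2 with the highest mean CPM, from each marker list the 2 of each kind, Ly6g, Mpo and Elane, the 3 genes most like S100a8 and S100a9, and the tested neighbours. Positions came from GENCODE vM21 on GRCm38 and promoter windows from RefSeq on GRCm38.p6. Protein sequences were not used here, and a few marker genes that this rule names are not reported here.

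Alternatives were quantile normalization with limma, library size alone, no filter, a mean of at least 50 counts, DESeq2, the replicate number as a block, leaving out the ribosomal RNA row Rn45s, leaving out each mouse, and leaving out WT 2 and KO 3 together.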

Additional observations from a re-analysis of the deposited data

How the results depend on the processing

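The calls of S100a1, S100a13, S100a4, S100a6 and S100a10 kept their direction and stayed past the threshold in all 14 alternatives. Their log2 fold changes ranged from -1.42 to -0.83 (S100a1), -1.45 to -0.88 (S100a13), 2.33 to 2.89 (S100a4), 1.66 to 2.18 (S100a6) and 0.54 to 1.05 (S100a10). S100a8, S100a9 and S100a11 were called in none, with adjusted p from 0.301 to 0.988 for S100a8. With library size alone, S100a16 was called too, which made 6 members, and 1 other family gene (S100b) was called instead of 0. That scaling raised the median of all genes from 0.03 to 0.45 and gave 5891 genes higher and 1371 lower, against 3082 and 2897, so that 81.1% and not 51.5% of calls were higher.

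Genes past the threshold numbered 5979, and 3889 without WT 2 and KO 3, where fewer mice entered. Leaving out each mouse gave 4842 to 5868. The muscle list, with 3 genes higher, had 12 without WT 2, 1 without WT 1, 1 without WT 3 and 0 without KO 3.

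The genotypes share replicate numbers, but mice of the same number did not deviate together (correlations 0.070, -0.11 and -0.086), so the numbers were not taken as pairs, and not every mouse was nearest to its own number. With the replicate block 5599 genes passed, and 5 members, 21 genes of the partner lists and 49 of the marker lists, and the call of Anxa8 was lost.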

Other observations

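Counts for the remaining marker lists and genes of the muscle list are given here, by the same edgeR test. Of 8 endothelial markers, 3 (37.5%) were lower and 0 higher in Letmd1 KO BAT, against 22.3% and 23.7% of all genes tested. Their median log2 fold change was -0.42. The count lower was 1 without WT 1, without KO 2, with library size alone and without WT 2 and KO 3. Kdr, the main receptor for vascular endothelial growth factor, changed by -0.99 and the cadherin Cdh5 by -0.34, while Pecam1 stood at 0.03. Erythroid genes were not called among 6 tested, with Hba-a1 at -0.21, Hbb-bs at -0.30 and Alas2 at -0.51. In the muscle list 3 of 14 (21.4%, against 23.7% of all genes tested) were higher and 0 lower, among them Tnnt1 (2.79) and Myh1 (3.27), while Myl1 (-0.04) and Acta1 (2.38) did not pass, and Acta1 had 6, 776 and 3 counts in WT and 694, 521 and 4936 in KO mice.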
